A study of Arabidopsis thaliana with 12 samples.

Results

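The miR164 family was followed through small RNA libraries of Arabidopsis thaliana shoots. Every row of the deposited table whose name starts with ath-miR164 was taken, whatever the precursor or arm. This gave 5 of the 390 names listed: ath-miR164a, ath-miR164b-5p, ath-miR164c-5p and the opposite arms ath-miR164b-3p and ath-miR164c-3p, written below without the prefix. All 5 passed the filter on low counts, as did 273 names in all. The shoots came from wild type (WT) Col-0 and from a hasty knockout, labelled hasty KO, whose allele the labels do not name. HASTY is the plant orthologue of exportin-5, a nuclear export receptor that many plant miRNAs need to reach full levels. Seedlings were harvested at 10 days, after 5 days on standard nutrients and 5 days of treatment. The 4 groups compared were WT control, hasty control, WT low nitrogen (low N) and hasty low N, each with 3 biological replicates. The labels give the low N treatment but no separate control medium, and do not say how many seedlings made up a library. The table lists miRNAs only, so neither the HASTY transcript nor any shoot marker gene could be checked.

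miR164 is a conserved plant miRNA that guides cleavage of messenger RNAs of NAC transcription factors. Its targets include CUC1 and CUC2, which keep neighbouring organs apart and shape leaf margins and meristem boundaries. They also include NAC1, a factor in auxin-dependent lateral root formation, and ORE1, which promotes leaf senescence. The family is encoded by MIR164a, MIR164b and MIR164c, and MIR164c is also known as EARLY EXTRA PETALS1 for its mutant flowers. The 5p arm is the guide strand, and the 3p arm is the opposite strand of the duplex that Dicer-like processing releases.

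The mature sequences are shown because they decide which names can be told apart. They were read from the RefSeq TAIR10.1 genome at the annotated positions and written as RNA, 5′ to 3′, with the seed (bases 2 to 8) in capitals.
miR164a: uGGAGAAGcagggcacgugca
miR164b-5p: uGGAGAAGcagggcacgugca
miR164c-5p: uGGAGAAGcagggcacgugcg
miR164b-3p: cAUGUGCCcaucuucaccauc
miR164c-3p: cACGUGUUcuacuacuccaac
The 3 guide strands share 1 seed, which no other known name in the table has. miR164a and miR164b-5p are identical over all 21 bases, and their counts differed by 2 to 40 reads per library, at most 0.480% of the miR164b-5p count. Reads of this sequence therefore cannot be assigned to MIR164a or MIR164b. miR164c-5p differs from them by A21G, counted from the 5′ end, so it can be followed alone only as far as the counting resolved this last base. The sources used here do not say how mismatches or trimmed ends were handled. The 3p arms are distinct sequences. The values of miR164b-3p were repeated exactly by the predicted name NovelmiRNA-134.

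The 3 precursors lie apart from other annotated genes, all on the plus strand. MIR164a (AT2G47585) is at chromosome 2, positions 19520752 to 19520864, MIR164b (AT5G01747) at chromosome 5, 287584 to 287736, and MIR164c (AT5G27807) at chromosome 5, 9852674 to 9852775. No other annotated gene overlapped any of them on either strand. Their hairpins are given as DNA with the annotated mature arms in capitals, to show where each arm lies in its precursor. In MIR164a the annotation marks the guide arm alone.
MIR164a: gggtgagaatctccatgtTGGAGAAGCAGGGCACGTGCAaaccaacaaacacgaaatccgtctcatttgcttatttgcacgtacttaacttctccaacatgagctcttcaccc
MIR164b: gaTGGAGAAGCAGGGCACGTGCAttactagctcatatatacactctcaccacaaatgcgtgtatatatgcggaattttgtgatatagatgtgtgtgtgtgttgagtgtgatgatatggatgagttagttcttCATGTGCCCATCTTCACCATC
MIR164c: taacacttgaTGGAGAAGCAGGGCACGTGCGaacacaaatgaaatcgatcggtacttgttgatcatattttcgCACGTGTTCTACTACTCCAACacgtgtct
The hairpins are 113, 153 and 102 bases long.

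The sites in known NAC targets are shown because they differ at the base that faces A21G. Each is the best ungapped match to miR164a in the annotated transcript and lies in the coding sequence. The bases opposite the seed are in capitals.
CUC1: agcacguguccugUUUCUCCa
CUC2: agcacguguccugUUUCUCCa
NAC1: agcacguacccugCUUCUCCa
ORE1: cucacgugaccugCUUCUCCg
NAC080: uuuacgugcccugCUUCUCCa
NAC100: ucuacgugcccugCUUCUCCa
CUC1 (chromosome 3, 5111137 to 5111157) and CUC2 (chromosome 5, 21902301 to 21902321) have the same site, with 1 mismatch and 2 G:U pairs to either guide sequence. In NAC1 (chromosome 1, 20947142 to 20947162) there are 2 mismatches to either. In ORE1 (chromosome 5, 15858797 to 15858817) the facing base is C, which leaves 3 mismatches with miR164a and 2 with miR164c-5p, and 1 G:U pair with each. In NAC080 (chromosome 5, 2436958 to 2436978) and NAC100 (chromosome 5, 24701687 to 24701707) the facing base is U, which pairs with miR164a and forms a G:U pair with miR164c-5p. A match of letters is a description, and target RNAs were not measured in these libraries.

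The counts listed per library summed to between 1292752 and 3226269. Sums were lower in hasty than in WT of the same condition, and lower in low N than in control of the same genotype. Since some reads are listed under several names, these sums are not sequencing depth. Levels are given as TMM-normalised CPM (counts scaled to a library of 1000000), so every change is relative to the other listed miRNAs. Over the whole table, calls split into 51 higher and 74 lower in hasty control, but 36 and 81 with library totals. For low N in WT the split was 47 and 41, but 15 and 62. The scaling factors themselves moved with the groups, from 1.09 to 1.21 in WT control to 0.870 to 0.959 in WT low N. Less of an miRNA per cell and fewer cells that make it cannot be told apart in whole shoots. Replicates of a group differed far beyond counting error (chi-square over degrees of freedom 30.2 to 215), so none was a copy of another.

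The miR164a/b guide was the main form of the family. By CPM, miR164b-5p held ranks 28 to 45 of 390 names in the 12 libraries, miR164c-5p ranks 48 to 75, miR164b-3p ranks 109 to 189 and miR164c-3p ranks 197 to 252. Normalised counts of miR164a were 2322, 2478 and 2650 CPM in WT control, replicates 1 to 3. They were 1198, 1170 and 1132 in hasty control. In low N they were 3544, 4150 and 3963 in WT and 1869, 1781 and 1795 in hasty. No group overlapped another, in the order WT low N, WT control, hasty low N, hasty control.

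For miR164c-5p the WT control libraries held 464, 463 and 466 CPM, and those of hasty control 289, 306 and 379 CPM. In low N the values were 1044, 1003 and 891 CPM for WT and 667, 667 and 546 CPM for hasty. Again no group overlapped another, but the middle places were exchanged. Hasty low N lay above WT control for miR164c-5p, at 627 against 464 CPM, and below it for miR164a, at 1815 against 2483 CPM. This pair of groups differs in both factors and was not tested.

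**Figure D1:**
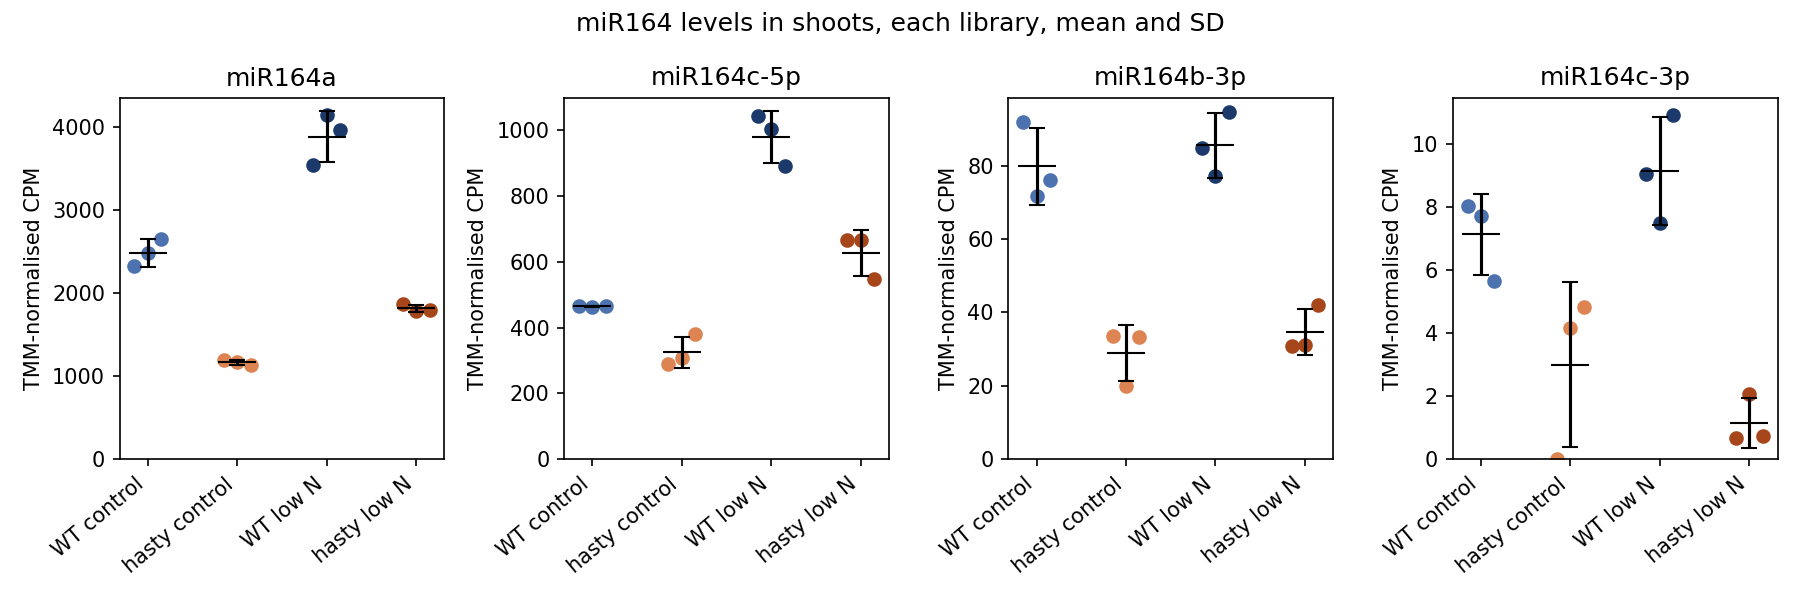
TMM-normalised CPM of miR164a, miR164c-5p, miR164b-3p and miR164c-3p in the 4 groups, with 1 point per library and bars for the mean and SD (n = 3). miR164a is highest in WT low N at 3886 CPM and lowest in hasty control at 1167 CPM, and the hasty libraries lie below WT in each condition for all 4 names.

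Loss of HASTY in control conditions was accompanied by lower levels of both guide sequences and of miR164b-3p. The miR164a/b guide fell more than miR164c-5p, 2.13-fold against 1.43-fold. In edgeR's quasi-likelihood test, 4 of the 5 names were lower at an adjusted p under 0.05 and 0 were higher. These 4 names are of 3 sequences. The background was 45.8% of the 273 tested names called in either direction and 27.1% called lower, with 18.7% called higher. miR164a averaged 2483 ± 164 CPM in WT and 1167 ± 33.2 CPM in hasty (SD, n = 3). Its log2 change was -1.09 with an SE of 0.067 (adjusted p = 2.7e-06 by edgeR). The same sequence under the name miR164b-5p changed by -1.09 ± 0.066, with the same adjusted p in edgeR. miR164c-5p averaged 464 ± 1.34 and 325 ± 47.8 CPM, which is a log2 change of -0.52 with an SE of 0.12 (adjusted p = 0.0054 by edgeR). Of all tested names, 22.3% had a more negative change than miR164a and 33.3% a more negative one than miR164c-5p.

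The opposite arm miR164b-3p had the largest fall of the called miR164 names, 2.75-fold. The WT control libraries held 91.7, 71.6 and 75.9 CPM of it and those of hasty control 33.6, 20.0 and 33.2, with no overlap (log2 change -1.46 ± 0.25, edgeR adjusted p = 0.0012). miR164c-3p was scarce throughout. Its counts were 27, 30 and 20 in the WT control libraries, and in those of hasty control it was listed at 0, 10 and 9. The WT libraries were all higher, but the change had an adjusted p of 0.37 in edgeR.

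Under low N the genotypes differed in the same direction. Again 4 of 5 names were lower in hasty and 0 higher, where 34.8% of the 273 tested names were called, 23.4% lower and 11.4% higher. The miR164a/b guide is counted among the 4 under both its names. The miR164a/b guide was 2.14-fold lower, from 3886 ± 311 to 1815 ± 47.4 CPM (SD, n = 3; log2 change -1.10 ± 0.067, edgeR adjusted p = 2.6e-06). miR164c-5p was 1.56-fold lower, from 979 ± 79.3 to 627 ± 69.8 CPM (-0.64 ± 0.12, edgeR adjusted p = 0.0016). Its call ended when the abundant miR166 names were left out before normalisation (log2 change -0.46, edgeR adjusted p = 0.061). The range of adjusted p over all its alternatives was 0.00051 to 0.061. miR164b-3p was 2.47-fold lower, at 84.7, 77.0 and 94.7 CPM in WT and 30.9, 31.1 and 42.0 in hasty (-1.30 ± 0.24, edgeR adjusted p = 0.0021).

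miR164c-3p held 22, 15 and 24 counts in the WT libraries of this condition, against 1, 3 and 1 in those of hasty. The groups did not overlap, yet edgeR gave an adjusted p of 0.061. DESeq2 called it lower (adjusted p = 0.0064), as did limma on log2(CPM + 1) (adjusted p = 0.015). edgeR also called it with upper-quartile factors (adjusted p = 0.046), with only the groups compared (adjusted p = 0.011) and without hasty control replicate 1 (adjusted p = 0.0022). These were 5 of its 23 alternatives, over which the adjusted p ran from 0.0022 to 0.17. The call therefore depends on the scaling, the test and the libraries in the fit. The 3p arm of MIR164c had too few reads for its size of change to be fixed: the 95% interval of the log2 change was -5.41 to -0.46.

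Low N was accompanied by more of both guide sequences, and by a larger rise of miR164c-5p than of the miR164a/b guide. In WT, 3 of 5 names were higher and 0 lower, against a background of 32.2% of tested names called, 17.2% higher and 15% lower. These 3 names stand for the miR164a/b guide, listed under both its names, and miR164c-5p. miR164a rose 1.56-fold (log2 change 0.65 ± 0.066 SE, edgeR adjusted p = 9.5e-05) and miR164c-5p rose 2.11-fold (1.08 ± 0.12, edgeR adjusted p = 0.0001). Among tested names, 78.4% had a smaller or more negative change than miR164a and 83.9% than miR164c-5p. The size for miR164a depended on the scaling. When libraries were scaled by their totals it was 0.28 (edgeR adjusted p = 0.024), while the median of all tested names moved from 0.06 to -0.27.

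In hasty, the same 3 names were higher and 0 lower, against a background of 23.8% called, 8.79% higher and 15% lower. miR164a rose 1.56-fold (0.64 ± 0.066, edgeR adjusted p = 0.00011) and miR164c-5p rose 1.93-fold (0.95 ± 0.12, edgeR adjusted p = 0.00027). With upper-quartile factors the call for miR164a ended, at a log2 change of 0.24 and an adjusted p of 0.11 in edgeR. miR164c-5p then changed by 0.53 (adjusted p = 0.026, edgeR), and the median of all tested names was -0.45 in place of -0.05. The rise in WT and the rise in hasty are measured against different control libraries.

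The opposite arms did not pass the test for low N in either genotype. For WT, miR164b-3p stood at 79.7 ± 10.6 CPM in control and 85.5 ± 8.83 in low N (SD, n = 3). The 95% interval of its log2 change was -0.45 to 0.65 (edgeR adjusted p = 0.90). In hasty it stood at 28.9 ± 7.73 and 34.6 ± 6.34 CPM, with an interval of -0.30 to 0.82 (edgeR adjusted p = 0.53). In both genotypes the control and low N libraries overlapped. For miR164c-3p the adjusted p was 0.92 in WT and 0.45 in hasty by edgeR. Without hasty control replicate 1, where it was listed at 0, the change in hasty was -1.94 (adjusted p = 0.041, edgeR).

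**Figure D2:**
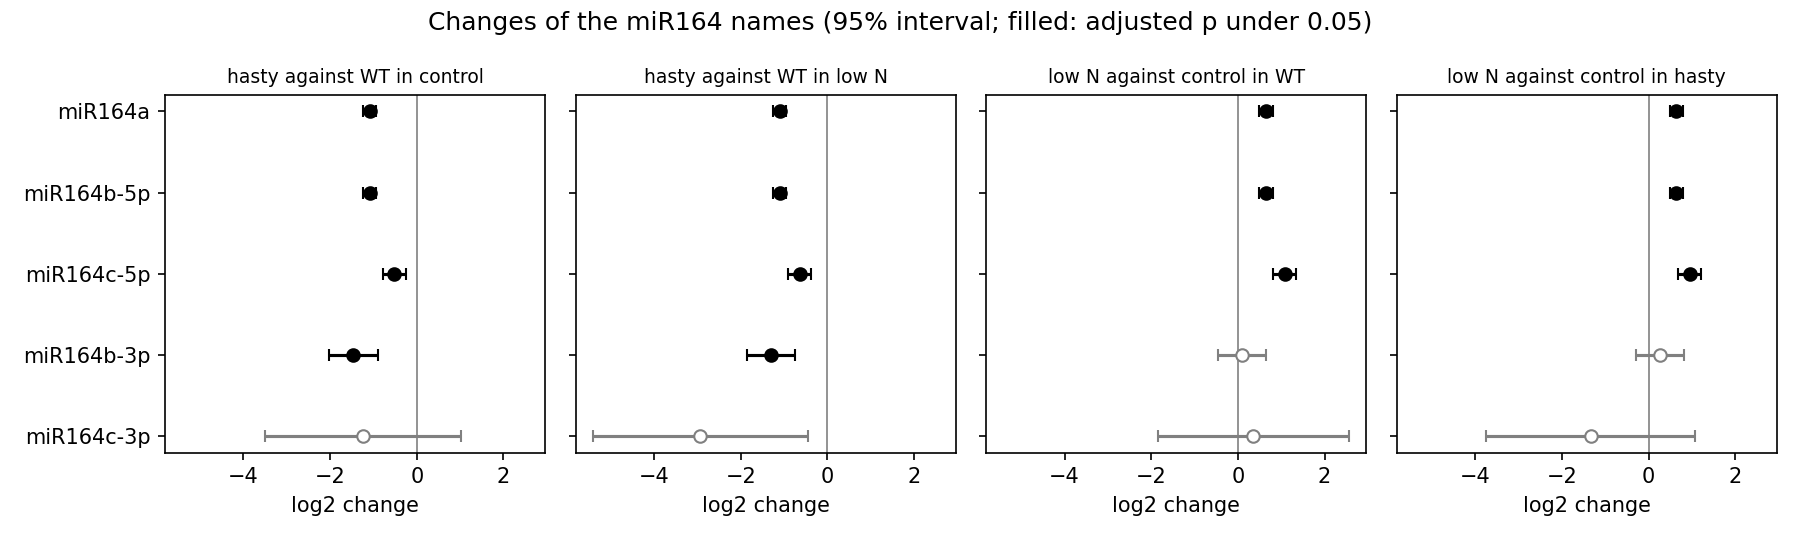
Log2 change of the 5 miR164 names in the 4 contrasts, with 95% intervals built from the edgeR change and its SE (t quantile at 8 residual degrees of freedom). Filled points have an adjusted p under 0.05. The guide names and miR164b-3p lie left of 0 for hasty against WT, at -0.52 to -1.46, and the guide names alone are filled to the right of 0 for low N, at 0.64 to 1.08.

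Whether the low N response depended on HASTY was asked with the interaction term. edgeR called 0 of the 5 names, and 0 had an unadjusted p under 0.05. DESeq2 and limma also called 0 of the 5. Over the 273 names DESeq2 called 9 positive and 16 negative terms, and limma 10 and 3. The background in edgeR was 1.83% of 273 names, 0.366% with a positive and 1.47% with a negative term. The interaction was -0.0085 (95% interval -0.22 to 0.21) for miR164a and -0.13 (-0.51 to 0.25) for miR164c-5p on the log2 scale. These intervals hold for this fit and its scaling alone, and do not show that the responses of the genotypes are equal. The sign of the miR164a and miR164c-5p terms flipped under other scalings. With library totals the miR164a term lay above the upper end of its interval.

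**Figure D3:**
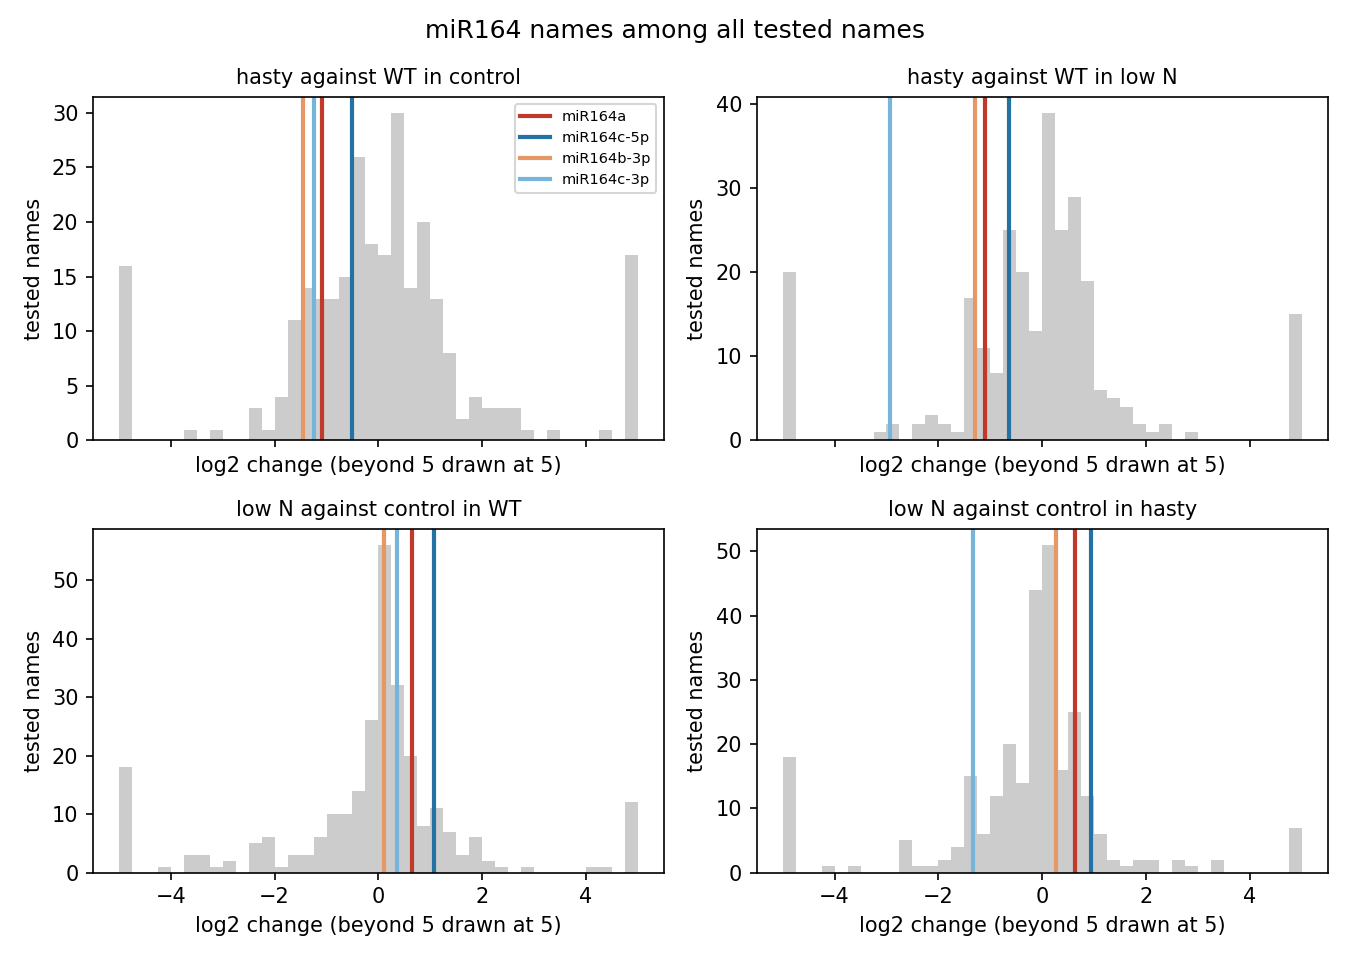
Histograms of the log2 change of all 273 tested names in each of 4 contrasts, with vertical lines for miR164a, miR164c-5p, miR164b-3p and miR164c-3p. miR164a and miR164c-5p lie on the left flank for hasty against WT and on the right flank for low N, inside the range of the other names in each panel.

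The makeup of the guide pool was compared within each library, which needs no scaling factor. The count of miR164c-5p was divided by its sum with the larger of the miR164a and miR164b-5p counts. In WT control the share was 16.6%, 15.7% and 14.9%, and in hasty control 19.4%, 20.7% and 25.0%. In low N it was 22.7%, 19.4% and 18.3% in WT and 26.3%, 27.2% and 23.3% in hasty. Exact 95% binomial intervals were at most 1.64 percentage points to either side, for counting error only.

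In control, miR164c-5p by this measure held 15.7% ± 0.835 of WT guide counts and 21.7% ± 2.91 of those of hasty (SD, n = 3). In low N it held 20.1% ± 2.28 and 25.6% ± 2.02. It was 5.73 percentage points higher in the mutant (exact permutation of genotype within each condition, two-sided, p = 0.005, the smallest that 400 assignments can give). The hasty libraries lay above WT without overlap in control and in low N, by 5.98 and 5.48 points. It was also 4.13 points higher in low N (two-sided exact permutation within genotypes, p = 0.010). Low N exceeded control without overlap in WT, by 4.39 points, whereas in hasty the difference of 3.88 points came with overlapping libraries. Adjusted over 4 ratio tests (these and the pair on the arms given among the other observations), both had p = 0.020 by exact permutation. The size of the share depends on taking the larger count. With miR164a and miR164b-5p summed, the genotype difference was 3.57 points (exact permutation p = 0.005). The nitrogen difference was then 2.57 points (exact permutation p = 0.015).

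**Figure D4:**
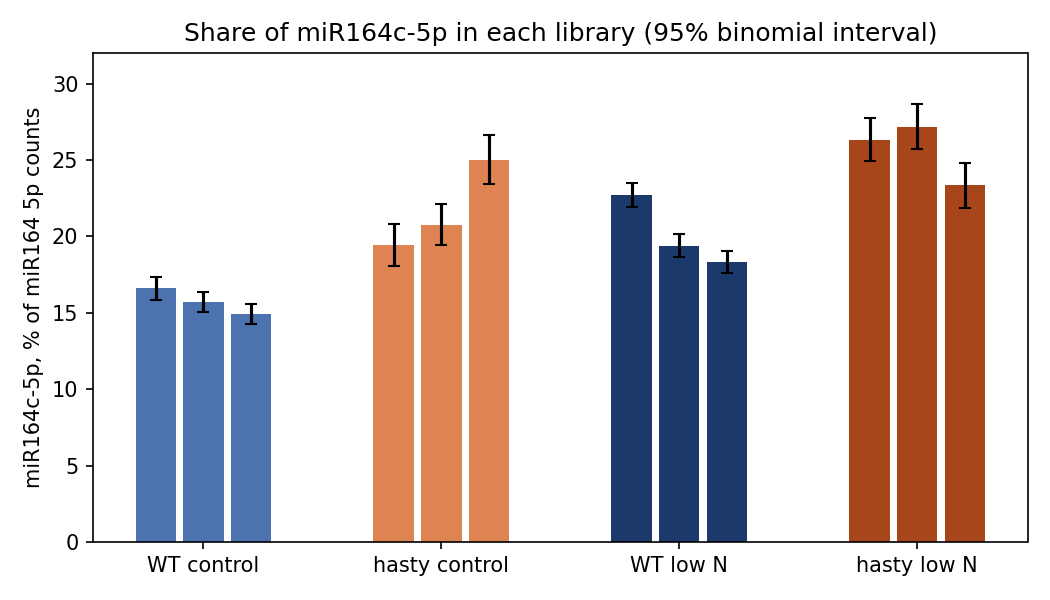
Share of miR164c-5p in the miR164 guide counts, in percent, with 1 bar per library and exact 95% binomial intervals. WT control is lowest at 14.9% to 16.6%, and hasty low N is highest on average at 25.6%.

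The names whose pattern over the 12 libraries was most like each guide were different for the 2 sequences. The comparison used Pearson's r of log2(CPM + 1) over 168 names above 0 in all libraries, which form 114 distinct rows. All points share the libraries and scaling factors, so r is a description. Closest to miR164a were miR403-3p (r = 0.99), which targets AGO2, miR159b-3p (0.97) and miR159c (0.95), of the family that acts on GAMYB-like genes, and miR168b-3p and miR168a-5p (both 0.92), the latter acting on AGO1. The level of miR403-3p in control was 446 CPM for WT and 154 CPM for hasty, and in low N it was 679 and 267 CPM. Closest to miR164c-5p were miR167c-5p (r = 0.97), of the family that acts on ARF6 and ARF8, the predicted NovelmiRNA-14, whose values NovelmiRNA-15 repeats (0.97), miR842 (0.96), miR159a (0.86) and then miR164a itself (0.84). The level of miR167c-5p was 394, 311, 760 and 538 CPM in that order. Between miR164a and miR164b-3p, r was 0.87.

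Among other miRNA families that act in leaf and organ-boundary development, more names were higher than lower in hasty control, where the miR164 guides were lower. The list held all 29 names, of 17 sequences, of miR160, miR165, miR166, miR319, miR390 and miR396. In hasty control 17 of them were higher and 4 lower by edgeR, with a median log2 change of 0.46 beside 0.0 for all tested names. That is 72.4% of the list called, beside the 45.8% of all tested names (18.7% higher and 27.1% lower). With library totals these counts were 10 and 4, beside 36 and 81 over all tested names. The 17 higher names are of only 8 sequences and the 4 lower names of 3. All 4 lower names are opposite arms: miR165a-5p, miR166a-5p, miR166b-5p and miR396a-3p. The opposite arms miR166e-5p and miR396b-3p are among the 17. So is miR319b, whose log2 change was 13.6, while miR319a, of the same sequence, changed by 0.36. Of the 17, 7 are names of the single miR166 guide, and the list median is the value of one of them, miR166b-3p. This guide acts on HD-ZIP III polarity genes and went from 66191 to 89873 CPM (edgeR adjusted p = 0.0079 for miR166a-3p). Also higher was miR396a-5p, which acts on growth-regulating factors, from 16187 to 22629 CPM (edgeR adjusted p = 0.035). Under low N, 4 of the names were higher in hasty and 2 lower, 20.7% of the list beside 34.8% of all tested names. The 4 include miR319b (log2 change 13.9), and the 2 are the opposite arms miR160c-3p and miR396a-3p. With upper-quartile factors the list had 3 higher and 4 lower, beside 20 and 80 over all tested names. With library totals it had 12 and 2, beside 43 and 59.

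In the response to low N, WT had 12 of the 29 names higher and 0 lower, with a median of 0.32 beside 0.06 for all tested names. That is 41.4% of the list called, beside 32.2% of all tested names (17.2% higher). The 12 names are of only 5 sequences, and 7 of them are the single miR166 guide. miR165a-3p went from 8307 to 17951 CPM (2.16-fold, edgeR adjusted p = 0.00029), and miR396a-5p from 16187 to 15867 (adjusted p = 0.98 in edgeR). These counts rest on the scaling: with library totals 2 were higher and 2 lower, beside 15 and 62 over all tested names. In hasty, 4 were higher and 0 lower, 13.8% of the list beside 23.8% of all tested names. The 4 include miR319b (log2 change 0.30), while miR319a was not called (0.20, edgeR adjusted p = 0.13). With upper-quartile factors 0 were higher and 5 lower, beside 11 and 76 over all tested names.

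The auxin-linked list (miR160, miR167, miR390, miR393 and miR847) held 19 names of 14 sequences. In hasty control 4 were higher and 2 lower by edgeR (median 0.28), 31.6% of the list beside 45.8% of all tested names. With library totals 1 was higher and 3 lower, beside 36 and 81 over all tested names. In low N, hasty had 1 higher and 4 lower (median 0.05), 26.3% beside 34.8%. The passenger arm miR167a-3p was lower in hasty in both conditions, going from 17038 to 6315 CPM in control (edgeR adjusted p = 3.1e-05). The guide miR167b, of the same sequence as miR167a-5p, stood at 36114 and 39108 CPM (adjusted p = 0.55, edgeR). The miR160 guide, which represses ARF10, ARF16 and ARF17, was at 2468 CPM in control WT shoots and at 3084 in hasty under the name miR160c-5p. Of the 3 names of this sequence 2 were called, with edgeR adjusted p from 0.032 to 0.062. For low N in WT, 3 of the 19 names were higher and 1 lower, 21.1% of the list beside 32.2% of all tested names. With library totals these counts were 2 and 3, beside 15 and 62 over all tested names. In hasty, 2 were higher and 1 lower, 15.8% beside 23.8%. With upper-quartile factors these were 1 and 6, beside 11 and 76 over all tested names.

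**Figure D5:**
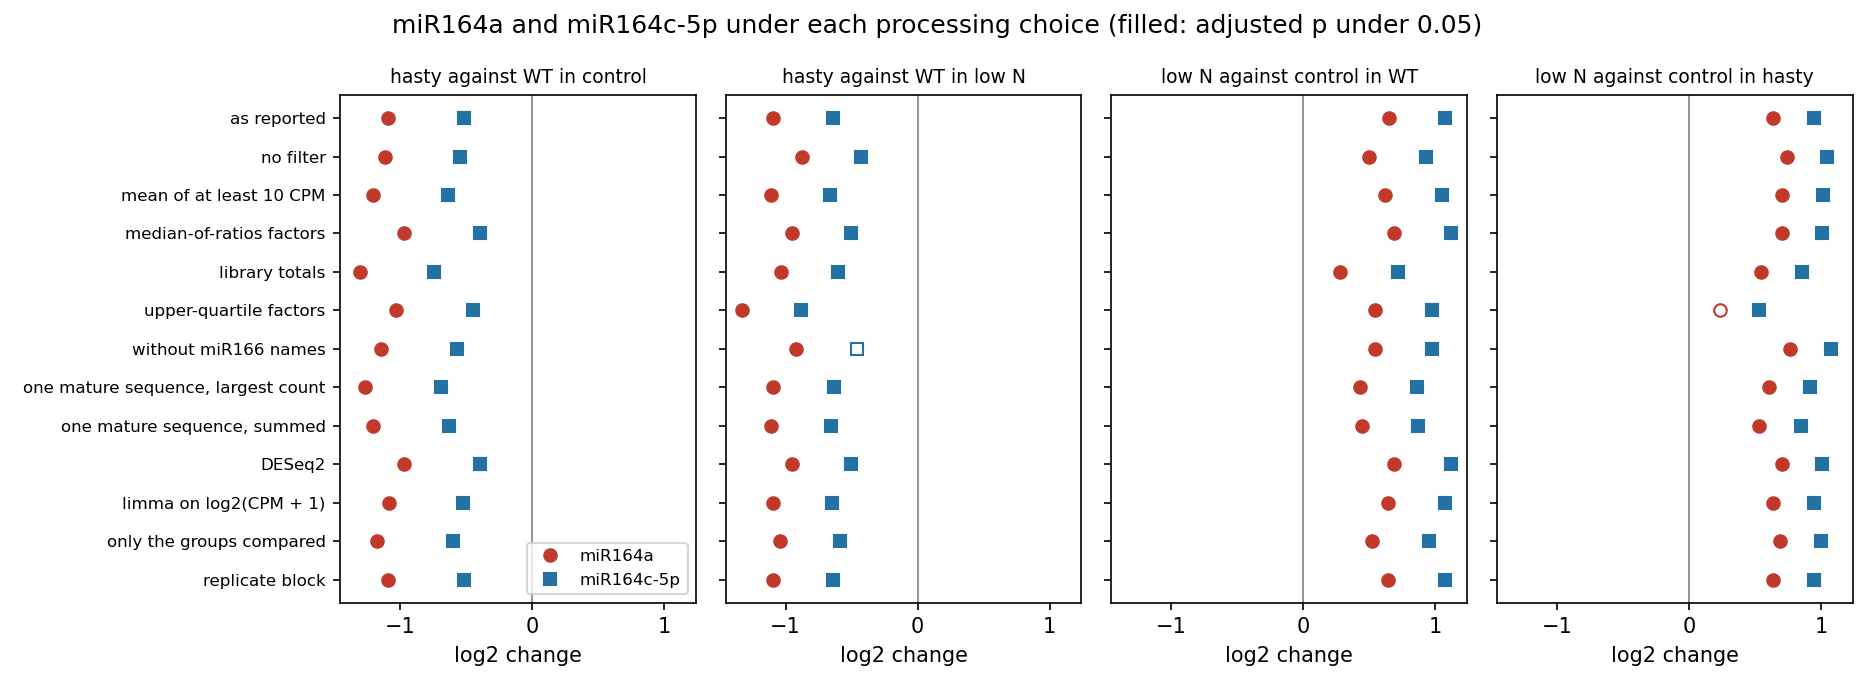
Log2 change of miR164a (circles) and miR164c-5p (squares) as reported and under each alternative, with filled symbols for an adjusted p under 0.05. Every symbol keeps its side of 0; the open ones are miR164a for low N in hasty with upper-quartile factors (0.24) and miR164c-5p for hasty against WT in low N without miR166 names (-0.46).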

How the data were processed

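Per the labels' protocols, small RNA libraries were made by adaptor ligation and PCR, with no molecular identifiers named. The deposited table is called TPM, but its values are whole-number counts for each miRNA name whose columns have unequal sums. The sources used here do not give trimming, alignment or counting. The submitters' processing notes name only the mouse build mm10, which holds no such names. All 216 known names matched a product in TAIR10.1.

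The members and lists were chosen with earlier results of these data known. Counts were filtered with filterByExpr and fitted in edgeR 4.0.16 (R 4.3.3; TMM, glmQLFit, glmQLFTest, two-sided) over all 12 libraries with 1 coefficient per group. Adjusted p-values are Benjamini-Hochberg over 273 names, with a threshold of 0.05. The SE is the change divided by the square root of F. The 95% intervals are the change plus or minus the SE times the t quantile at 8 residual degrees of freedom. They were not given by edgeR and need not match its p-values exactly. Alternatives used DESeq2 1.42.0 and limma 3.58.1. Named were all miR164 rows, the 3 most abundant sequences of each list, and the 5 rows most like each guide. Same-numbered replicates did not deviate together, so no block was used.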

Additional observations from a re-analysis of the deposited data

How the results depend on the processing

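Of the called changes, those of hasty against WT for miR164a, miR164b-5p and miR164b-3p, of miR164c-5p in control, the low N rises in WT and that of miR164c-5p in hasty kept direction and call under all 24 alternatives; the cause of the changes below was not tested. With upper-quartile factors, low N in hasty gave 0.24 for miR164a and 0.24 for miR164b-5p, leaving 1 called name, and the change of miR164c-3p in hasty low N was called (-3.15). The latter was also called by DESeq2 (-2.86), limma (-2.29) and with only the groups compared (-2.87). Leaving out 1 library gave -3.62 to -2.66 for it, with a call without hasty control replicate 1. For low N in hasty the range was -2.04 to -0.90 for miR164c-3p, and 3 to 4 miR164 names were called. Over the whole table these fits called from 14 higher and 27 lower of 296 names to 38 and 42 of 299. Without miR166 names, miR164c-5p in hasty low N was -0.46.

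Some signs near 0 turned, all uncalled. The interaction of miR164a was 0.24 without a filter, 0.090 at a mean of 10 CPM, 0.019 with median-of-ratios factors, 0.27 with library totals, 0.22 without miR166 names, 0.17 with one mature sequence at its largest count, 0.092 summed and 0.019 in DESeq2, and -0.077 to 0.16 without 1 library. For miR164b-5p these were 0.24, 0.088, 0.017, 0.27, 0.22, 0.17, 0.092, 0.017 and -0.078 to 0.16. For miR164c-5p the interaction was 0.12 without a filter, 0.14 with library totals, 0.11 without miR166 names, 0.053 at the largest count, and -0.21 to 0.079 without 1 library. For miR164b-3p it was -0.15 with upper-quartile factors and -0.068 to 0.34 without 1 library. Low N in WT gave miR164b-3p -0.049 without a filter, -0.26 with library totals, -0.0053 with upper-quartile factors, -0.0054 without miR166 names, -0.12 and -0.11 with one mature sequence at its largest count or summed, -0.024 with only the groups compared, and -0.037 to 0.17 without 1 library. In hasty it was -0.15 with upper-quartile factors and -0.025 to 0.38 without 1 library. miR164c-3p in WT was -0.012 with library totals.

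The same-numbered libraries did not deviate together (r from -0.29 to 0.39 over 18 pairs, and 3 of 12 libraries correlated best with their own number), so the numbers do not pair the samples. The replicate block left the number of called miR164 names unchanged at 4, 4, 3, 3 and 0, while calls over the table went from 51 higher and 74 lower to 44 and 57 in hasty control. Permuting within the replicate number as a block gave p = 0.0625 for the nitrogen difference of 4.13 points in the miR164c-5p share (exact permutation, smallest possible 0.03125); leaving out 1 library gave 3.49 to 4.95 points, and 4.91 to 6.37 by genotype. Fits without 1 library were filtered again. Over the whole table, DESeq2 called 73 higher and 70 lower in hasty low N against 31 and 64 in edgeR, and 9 and 16 interactions against 1 and 4. Interactions were 10 and 3 in limma, 1 and 8 with upper-quartile factors and 0 and 3 with the replicate block. With one mature sequence at its largest count, low N in WT gave 21 higher and 36 lower against 47 and 41. With upper-quartile factors, low N in hasty gave 11 and 76 against 24 and 41. Depth was least for miR164c-3p, at 0 to 30 counts per library.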

Other observations

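The balance of the MIR164b arms was examined after the data were seen. Counts of miR164b-3p per 100 of miR164b-5p were 3.93, 2.88 and 2.86 in WT control and 2.80, 1.71 and 2.92 in hasty control. In low N they were 2.38, 1.85 and 2.38 in WT and 1.65, 1.74 and 2.34 in hasty. The ratio differed by -0.793 in low N (two-sided exact permutation within genotypes, p = 0.035, adjusted over 4 ratio tests p = 0.047), with no overlap in WT and overlap in hasty. Between genotypes it differed by -0.521 in hasty, which missed the threshold (exact permutation p = 0.055). The nitrogen difference had p from 0.050 to 0.075 by exact permutation when 1 library was left out among replicates 1 and 3 of hasty control, replicate 2 of WT low N and replicates 1 and 2 of hasty low N. It was 0.0625 by exact permutation within replicate numbers. The genotype difference had an exact permutation p of 0.035 without hasty control replicate 3 and of 0.045 without hasty low N replicate 3. The denominator also holds reads of MIR164a, since the guides are identical, so the ratio is not a property of MIR164b alone. For MIR164c, the 3p counts per 100 of 5p were 1.73, 1.67 and 1.22 in WT control and 0, 1.36 and 1.27 in hasty control. In low N they were 0.867, 0.749 and 1.23 in WT. They were 0.0985, 0.311 and 0.132 in hasty low N, where the 3p arm had only 1, 3 and 1 counts. This ratio was not tested.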
